A study of Mus musculus with 6 samples.

Results

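The 10 genes described here encode RAGE, toll-like receptors, their shared adaptor, and proteins that these receptors bind or that handle advanced glycation end products (AGEs). They are Ager, Tlr2, Tlr4, Myd88, Hmgb1, S100a4, S100a6, Lgals3, Ddost and Glo1. They were chosen by name as receptors, danger signals and AGE-handling genes, with earlier results of these data known. The protein of Ager was also stained in kidney sections of the same study. They make up 10 of the 17684 genes in the gene table, and all 10 were among the 13679 genes tested, which had at least 10 counts in at least 3 libraries. Kidney RNA was sequenced from db/db mice of the strain labelled C57 BLKS/L, which lack a working leptin receptor and become obese and diabetic. The Db group held 3 mice given saline and the Db + Ato10 group 3 mice given atorvastatin, an inhibitor of cholesterol synthesis, at 10 mg/kg per day; both ran for 40 weeks and all 6 mice were 50 weeks old. A second label field names atorvastatin for all 6 mice, and the treatment field, which sets saline apart from atorvastatin, was used. The mice of both groups were diabetic and no lean control is part of the comparison. The paper reports increased mortality of db/db mice given statins and names a possible survivor bias. After an experiment with shorter treatment it believes that this may not be the main factor. Its part in these libraries was not tested. Each mouse gave 1 library.

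RAGE is a receptor of the immunoglobulin superfamily on the cell surface that binds AGEs, HMGB1 and S100 proteins and signals towards NF-kB. Toll-like receptors recognise microbial products and molecules released by damaged cells, and most of them pass the signal through the adaptor MyD88 to the same transcription factor. In the diabetic kidney AGEs build up on proteins, and these receptors are found on infiltrating leukocytes as well as on tubular, mesangial and endothelial cells.

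The libraries held between 11381678 and 14667909 counts in total, and 3 counts, taken as the lower limit of detection, correspond to between 0.198 and 0.260 CPM (counts relative to library size, scaled by TMM). These limits cover counting error only. The smallest count of any member in any library was 13, for Ager in Db replicate 1. Of the 6 libraries, 3 stand apart from the others in some way. Db replicate 1 held 2 counts over 4 Y-linked genes (Uty, Ddx3y, Eif2s3y and Kdm5d), against 1419 to 2116 in the other 5 libraries, although only males were used per the study's methods. Db + Ato10 replicate 1 differed most from the Db libraries, with 3434 genes more than 2-fold from the Db mean, and Db + Ato10 replicate 2 had 2136 such genes. Db + Ato10 replicate 3 had 463, within the 434 to 699 that the Db libraries had against the mean of the other Db libraries. Each library was therefore left out in turn, and a range marked "left out" gives the lowest and highest value over these 6 edgeR fits.

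The comparison asks how the kidneys of atorvastatin-treated diabetic mice differ from those of saline-treated diabetic mice. In the Db + Ato10 group S100a6, Tlr2, S100a4 and Lgals3 had the higher mean levels, by 13.9, 9.52, 7.18 and 4.85 times, followed by Tlr4, Myd88 and Ager at 2.23, 2.09 and 1.85 times, while Ddost, Hmgb1 and Glo1 lay at 1.14, 1.02 and 1.01 times the Db mean. With edgeR none of the 10 passed the DEG criteria, a fold change over 1.5 and an adjusted p under 0.05, and neither did any of the 13679 tested genes (0%). An unadjusted p under 0.05 was reached by 5 of the 10, Tlr2, Myd88, Lgals3, S100a4 and S100a6, all higher in Db + Ato10, beside 16.9% of all tested genes (2314) and 11.2% that were higher (1533). The 3 libraries of each group did not overlap for 4 of the 10, Tlr2, Lgals3, S100a6 and Ddost, again all higher, beside 23.2% of all tested genes and 12% that were higher. With DESeq2 the DEG criteria were passed by 4 of the 10, Tlr2, Lgals3, S100a4 and S100a6, beside 6.46% of all tested genes (884) and 5.17% that were higher (707). The DESeq2 count was 0, 2 and 1 of the 10 without Db replicates 1, 2 and 3, beside 195, 623 and 223 of all tested genes, and 2, 4 and 6 without Db + Ato10 replicates 1, 2 and 3, beside 313, 372 and 2614. The smallest adjusted p in edgeR, 0.239, is shared by many genes and recurs below. Over the 10 the median log2 fold change was 1.11, against −0.01 over all tested genes. With 3 libraries a group an exact permutation test of a single gene cannot give a p under 0.1. In bulk tissue a change in the number of cells of a type cannot be told apart from a change in RNA per cell.

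**Figure D1:**
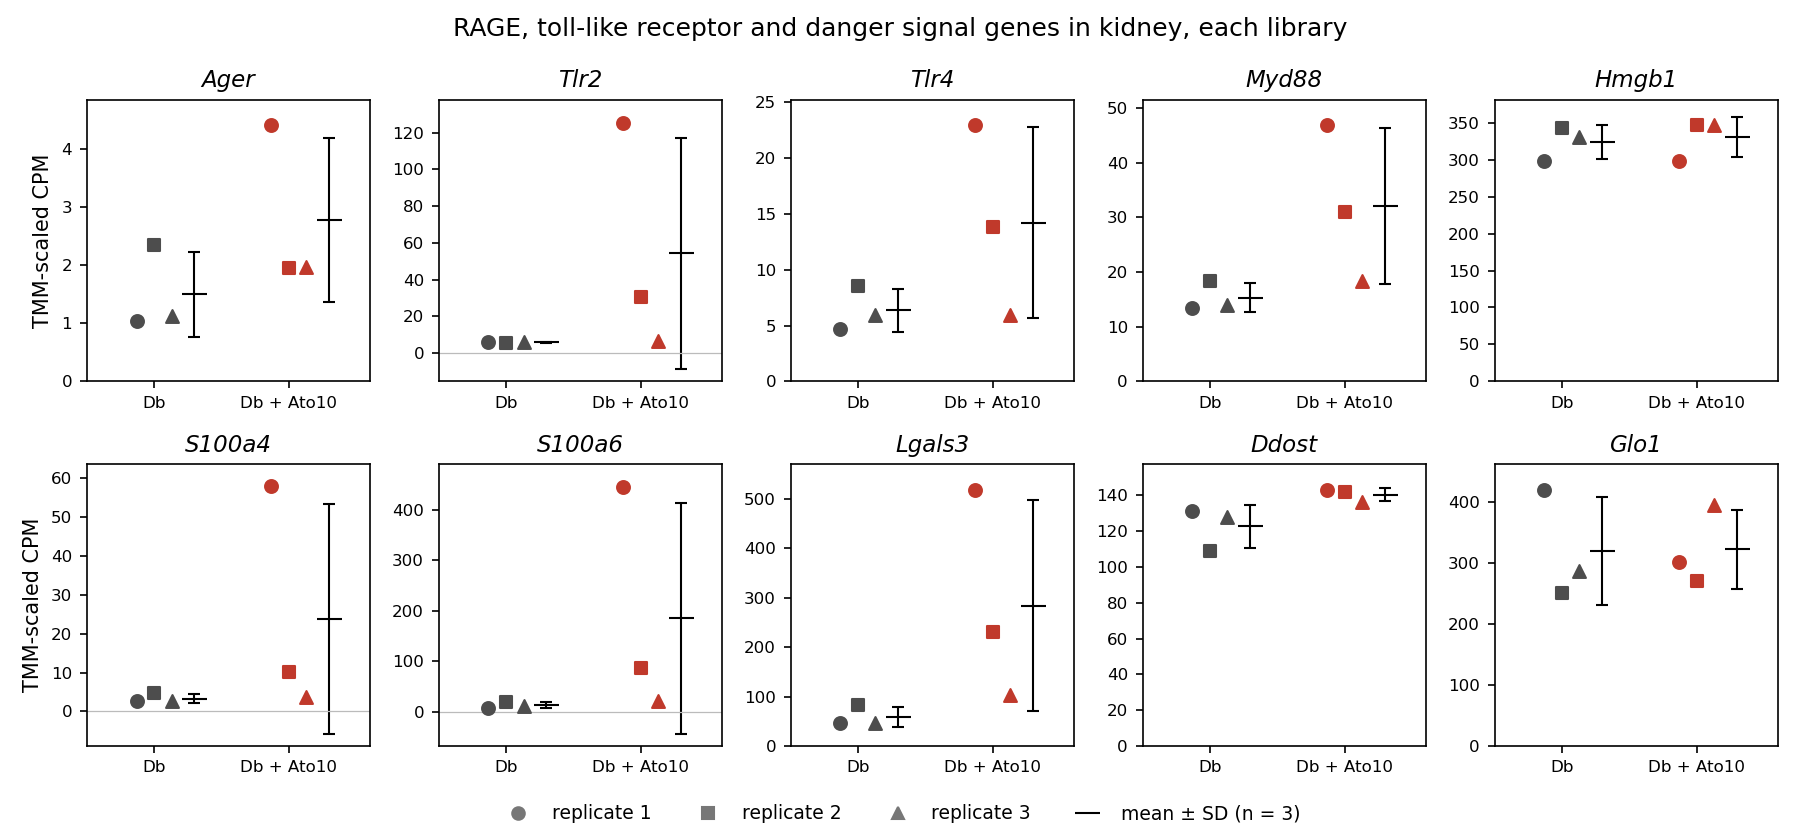
Level of each of the 10 genes in every library, as TMM-scaled CPM on a linear axis, with 1 symbol per library and the mean ± SD (n = 3) beside each group. Db + Ato10 replicate 1 is the highest library for Tlr2 (126 CPM), S100a6 (446 CPM), Lgals3 (519 CPM) and S100a4 (57.8 CPM), and Db + Ato10 replicate 3 lies close to the Db libraries for Tlr2 (6.30 CPM) and Tlr4 (5.91 CPM).

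Ager, the gene of RAGE, was measured at 1.03, 2.34 and 1.13 CPM in Db replicates 1 to 3 and at 4.41, 1.96 and 1.97 CPM in Db + Ato10 replicates 1 to 3. The groups overlap, since Db replicate 2 lies above Db + Ato10 replicates 2 and 3, and only Db + Ato10 replicate 1 exceeds every Db library. The counts behind these values run from 13 to 67. Its log2 fold change was 0.89 ± 0.51 (SE, edgeR, adjusted p = 0.39) (left out: 0.40 to 1.36). It was lowest without Db + Ato10 replicate 1 and highest without Db replicate 2, where Ager reached an unadjusted p under 0.05. The RNA values say nothing of the amount of RAGE protein.

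Tlr2, whose product senses bacterial lipoproteins and several molecules of damaged tissue, stood at 5.80, 5.46 and 5.82 CPM in the Db libraries and at 126, 30.7 and 6.30 CPM in the Db + Ato10 libraries. The groups do not overlap, but by a margin of only 0.486 CPM: Db + Ato10 replicate 3 is at 1.11 times the Db mean, whereas replicates 2 and 1 are at 5.39 and 22.1 times. Over all libraries the log2 fold change was 3.25 ± 0.99 (SE, edgeR, adjusted p = 0.239; DESeq2 adjusted p = 0.00573), lowest without Db + Ato10 replicate 1 (left out: 1.71 to 3.78). Tlr4, the receptor for bacterial lipopolysaccharide that HMGB1 also engages, was at 4.69, 8.50 and 5.90 CPM in Db and at 22.9, 13.8 and 5.91 CPM in Db + Ato10. Db + Ato10 replicates 1 and 2 lie above all Db libraries and replicate 3 falls among them. The log2 fold change of Tlr4 was 1.16 ± 0.50 (SE, edgeR, adjusted p = 0.311; DESeq2 adjusted p = 0.194), again lowest without Db + Ato10 replicate 1 (left out: 0.65 to 1.53).

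Of 18 other toll-like receptors and co-receptors, 14 were tested and 9 reached an unadjusted p under 0.05, all higher in Db + Ato10; the median log2 fold change was 2.01, and 7 passed the DEG criteria with DESeq2. Fits with 1 library left out gave 4 to 9 at that p and a median of 1.51 to 2.58. Tlr8, at 0.162 to 0.780 CPM in Db, is 1 of the 9 and of the 7. It reached 10 counts in the Db + Ato10 libraries only, so it entered the test through the group where it is high. The smallest p-values belonged to Cd14, Tlr7 and Tlr13. Cd14, which hands lipopolysaccharide to TLR4, was at 6.12, 9.88 and 7.43 CPM in Db and at 779.9, 86.9 and 24.7 CPM in Db + Ato10, with a log2 fold change of 5.25 ± 1.33 (SE, edgeR, adjusted p = 0.239). Tlr7, an endosomal sensor of single-stranded RNA, ran from 1.29 to 1.99 CPM in Db and from 2.84 to 18.6 CPM in Db + Ato10. Tlr13, a sensor of bacterial ribosomal RNA in mice, ran from 1.05 to 3.64 CPM in Db and from 4.25 to 76.1 CPM in Db + Ato10. For these 3 genes every Db + Ato10 library lay above every Db library, with log2 fold changes of 5.25 (left out: 2.85 to 5.80), 2.64 (left out: 1.74 to 3.08) and 3.98 (left out: 2.62 to 4.56), each lowest without Db + Ato10 replicate 1. Hsp90b1, a chaperone that toll-like receptors need for folding and the most abundant gene of the list at a mean of 301 TPM (scaled to transcript length), had a log2 fold change of −0.41 ± 0.34 (SE) that lay near 0 without Db replicate 1 (left out: −0.66 to 0.01). Tlr11 had at most 3 counts in every library.

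Myd88, the adaptor that most toll-like receptors share, was measured at 13.5, 18.5 and 14.1 CPM in Db and at 46.9, 31.0 and 18.4 CPM in Db + Ato10. Replicates 1 and 2 of Db + Ato10 are above all Db libraries, and replicate 3 lies 0.111 CPM under Db replicate 2, so the groups touch. For Myd88 the log2 fold change was 1.07 ± 0.35 (SE, edgeR, adjusted p = 0.239; DESeq2 adjusted p = 0.0766), lowest in the fit without Db + Ato10 replicate 1 (left out: 0.70 to 1.35). Among 18 other adaptors, kinases and NF-kB subunits, 16 were tested, and the 4 that reached an unadjusted p under 0.05 were all NF-kB subunits, Relb, Rela and Nfkb2 with the smallest p, each higher in Db + Ato10 with no overlap between groups. Relb went from 7.23, 10.7 and 6.14 CPM in Db to 54.7, 29.0 and 15.3 CPM in Db + Ato10, a log2 fold change of 2.04 ± 0.49 (SE, edgeR, adjusted p = 0.239; DESeq2 adjusted p = 0.00338) (left out: 1.48 to 2.39). Rela and Nfkb2 had log2 fold changes of 0.94 (left out: 0.72 to 1.15) and 1.56 (left out: 0.88 to 1.90). Of the kinases upstream, Chuk was the most abundant gene of the list per length, with a mean of 55.5 TPM and a log2 fold change of −0.05 ± 0.32 (SE), of either sign with 1 library less (left out: −0.27 to 0.25). The median log2 fold change of the list was 0.27, and with 1 library left out it was 0.18 to 0.37, with 2 to 6 genes at an unadjusted p under 0.05.

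Of 13 negative regulators of toll-like receptor signalling, 12 were tested and 9 reached an unadjusted p under 0.05, all higher, with a median log2 fold change of 2.02 and 4 called by DESeq2. With 1 library left out 3 to 10 did, with 3 in the fits without Db replicate 1, Db replicate 3 or Db + Ato10 replicate 1, and the median was 0.67 to 2.43. Socs3, which restrains cytokine receptor signalling, was at 2.86, 8.41 and 3.07 CPM in Db and at 205, 30.4 and 22.6 CPM in Db + Ato10. Every Db + Ato10 library lay above every Db library, and the log2 fold change was 4.18 ± 1.03 (SE, edgeR, adjusted p = 0.239; DESeq2 adjusted p = 0.000222) (left out: 2.49 to 4.86). Socs1, of the same family, and Tnfaip3, the ubiquitin-editing enzyme A20, had log2 fold changes of 2.10 (left out: 1.52 to 2.50) and 2.93 (left out: 1.55 to 3.44) without overlap. Nfkbia, the gene of the inhibitor IκBα and the most abundant of the list with a mean of 153 TPM, was at 58.0, 48.1 and 32.5 CPM in Db and at 565, 89.3 and 50.6 CPM in Db + Ato10, so that Db + Ato10 replicate 3 lay among the Db libraries; its log2 fold change was 2.35 (left out: 0.61 to 2.83).

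Among the danger signals, Hmgb1, a nuclear DNA-binding protein that acts as a ligand of RAGE and TLR4 once released, was at 299, 343 and 331 CPM in Db and at 299, 347 and 346 CPM in Db + Ato10. The groups overlap almost fully, and the log2 fold change was 0.03 ± 0.16 (SE, edgeR, adjusted p = 0.93), of either sign with 1 library less (left out: −0.02 to 0.11). Its deposited counts were fractional in every library, unlike those of the other 9 genes, and the reason was not tested. Release of HMGB1 from cells cannot be read from RNA.

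S100a4 encodes a calcium-binding protein known from fibroblasts and leukocytes and reported as a RAGE ligand. It was at 2.62, 4.68 and 2.67 CPM in Db and at 57.8, 10.1 and 3.70 CPM in Db + Ato10. Replicates 1 and 2 of Db + Ato10 exceed all Db libraries and replicate 3 is below Db replicate 2. The log2 fold change was 2.85 ± 1.00 (SE, edgeR, adjusted p = 0.252; DESeq2 adjusted p = 0.0256), lowest without Db + Ato10 replicate 1 (left out: 1.07 to 3.36). S100a6, another calcium-binding protein of the family that binds RAGE, was at 8.74, 19.7 and 11.6 CPM in Db and at 446, 87.4 and 22.6 CPM in Db + Ato10. The groups do not overlap, the nearest libraries being Db replicate 2 and Db + Ato10 replicate 3, and the Db + Ato10 libraries stand at 33.5, 6.56 and 1.70 times the Db mean. The log2 fold change, 3.80 ± 1.08 (SE, edgeR, adjusted p = 0.239; DESeq2 adjusted p = 0.00166), was the highest of the 10 genes, and it too was lowest without Db + Ato10 replicate 1 (left out: 2.06 to 4.33).

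Of 15 other genes listed with the S100 family, 1 of which encodes a binding partner of an S100 protein, 14 were in the table, 10 were tested and 5 reached an unadjusted p under 0.05, all higher and without overlap, with a median log2 fold change of 0.70. Leaving out 1 library gave 2 to 8 at that p and a median of 0.47 to 0.87. S100a8 and S100a9, the neutrophil calgranulins that bind TLR4 and RAGE, were low in Db, at 0.485 to 1.91 and 2.07 to 4.59 CPM. They reached 3276 and 5285 CPM in Db + Ato10 replicate 1, against 27.4 and 42.8 CPM in replicate 2 and 2.13 and 5.36 CPM in replicate 3. S100a9 was also the most abundant gene of the list, with a mean of 3562 TPM that rests on this library, and DESeq2 gave neither gene an adjusted p. Their log2 fold changes were 9.72 (left out: 3.52 to 10.32) and 9.18 (left out: 3.00 to 9.79), lowest without Db + Ato10 replicate 1. S100a11 was at 136, 185 and 167 CPM in Db and at 819, 518 and 272 CPM in Db + Ato10, a log2 fold change of 1.72 ± 0.40 (SE, edgeR, adjusted p = 0.239; DESeq2 adjusted p = 0.00269) (left out: 1.29 to 2.04). S100a10, a partner of annexin A2, had a log2 fold change of 0.89 ± 0.22 (SE) (left out: 0.77 to 1.05). S100a7a and S100z had at most 3 counts in every library.

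Of 20 other danger signals, 17 were tested and 5 reached an unadjusted p under 0.05, all higher, with a median log2 fold change of 0.65. With 1 library left out 2 to 8 did, and the median was 0.38 to 1.09. Tnc, an extracellular matrix glycoprotein that can activate TLR4, was at 6.36, 4.42 and 9.29 CPM in Db and at 50.7, 32.4 and 12.1 CPM in Db + Ato10, with no overlap and a log2 fold change of 2.24 ± 0.55 (SE, edgeR, adjusted p = 0.239) (left out: 1.74 to 2.64). Saa1, an acute-phase protein, ran from 0 to 2.07 CPM in Db and from 4.80 to 26.1 CPM in Db + Ato10, a log2 fold change of 3.87 that was lowest without Db + Ato10 replicate 1 and highest without Db replicate 1 (left out: 2.57 to 6.09). Anxa1, which limits neutrophil recruitment, had a log2 fold change of 2.57 ± 0.89 (SE) with overlapping groups (left out: 1.005 to 3.07). Saa3, the gene with the highest mean TPM of the list, was not tested, since it had under 10 counts in 4 libraries; it was at 3984 CPM in Db + Ato10 replicate 1, 6.89 in replicate 2, and 0.0795 to 0.433 CPM in the other 4 libraries.

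Lgals3 encodes galectin-3, a lectin abundant in macrophages and injured epithelium that binds AGEs. It was at 47.0, 82.9 and 45.7 CPM in Db and at 519, 230.5 and 103 CPM in Db + Ato10. Each Db + Ato10 library lies above each Db library, at 8.87, 3.94 and 1.75 times the Db mean. The log2 fold change was 2.28 ± 0.60 (SE, edgeR, adjusted p = 0.239; DESeq2 adjusted p = 0.00454), lowest without Db + Ato10 replicate 1 (left out: 1.52 to 2.68). Of 9 other galectins, 8 were in the table, 6 were tested and 2 reached an unadjusted p under 0.05, Lgals1 and Lgals9, both higher without overlap (1 to 2 genes with 1 library left out). Lgals1, the most abundant of the list with a mean of 303 TPM, was at 43.6, 56.9 and 54.8 CPM in Db and at 336, 184 and 66.6 CPM in Db + Ato10, a log2 fold change of 1.92 ± 0.54 (SE, edgeR, adjusted p = 0.239; DESeq2 adjusted p = 0.0118) (left out: 1.29 to 2.34). For Lgals9 it was 1.26 (left out: 0.53 to 1.54). Lgals2 and Lgals7 had at most 3 counts in every library.

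Ddost, a subunit of the oligosaccharyltransferase of the endoplasmic reticulum that has also been named as AGE receptor 1, was at 131, 109 and 128 CPM in Db and at 143, 142 and 136 CPM in Db + Ato10. In CPM the groups lie close together without overlap, and in TPM they overlap, with Db libraries up to 113 and Db + Ato10 libraries from 110.3. The log2 fold change was 0.19 ± 0.13 (SE, edgeR, adjusted p = 0.458; DESeq2 adjusted p = 0.466) (left out: 0.12 to 0.26). None of 11 other subunits of the enzyme reached an unadjusted p under 0.05 or was called by DESeq2, and their median log2 fold change was 0.09; with 1 library left out 0 to 1 did. Ost4, the most abundant per length with a mean of 637 TPM, had a log2 fold change of 0.28 ± 0.13 (SE) (left out: 0.25 to 0.36).

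Of 10 other AGE receptors, sheddases and RAGE partners, all were tested and 5 reached an unadjusted p under 0.05, all higher, with a median log2 fold change of 0.68 and 3 called by DESeq2. Between 2 and 7 did with 1 library left out, with 2 in the fits without Db replicate 1, Db replicate 3 or Db + Ato10 replicate 1, and the median was 0.23 to 0.89. Mmp9, a metalloproteinase that can release the RAGE ectodomain, was at 0.397, 0.260 and 0.565 CPM in Db, close to the limit of detection, and at 245, 13.4 and 2.05 CPM in Db + Ato10. Msr1, a macrophage scavenger receptor that takes up AGE-modified proteins, was at 0.318, 1.56 and 0.969 CPM in Db and at 94.7, 18.0 and 1.97 CPM in Db + Ato10. Neither had an overlap between groups. Mmp9 is 1 of the 5 genes counted and of the 3 called by DESeq2, but it reached 10 counts in the Db + Ato10 libraries only. Its fold change over Db is therefore not given. Msr1 had a log2 fold change of 5.33 ± 1.44 (SE, edgeR, adjusted p = 0.239). The value was lowest without Db + Ato10 replicate 1 (left out: 3.42 to 5.90). Lgals3bp, a secreted glycoprotein that binds galectin-3, had a log2 fold change of 1.29 ± 0.42 (SE) with overlapping groups (left out: 0.93 to 1.67). Prkcsh, named as AGE receptor 2 and the most abundant of the list with a mean of 115 TPM, had a log2 fold change of −0.05 ± 0.13 (SE) (left out: −0.10 to 0.03).

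Glo1, glyoxalase 1, detoxifies methylglyoxal, the main precursor of AGEs in cells. It was at 421, 252 and 288 CPM in Db and at 303, 271 and 396 CPM in Db + Ato10. All Db + Ato10 libraries fall inside the range of the Db libraries, whose highest is Db replicate 1, and the log2 fold change was 0.01 ± 0.26 (SE, edgeR, adjusted p = 0.984), of either sign with 1 library less (left out: −0.15 to 0.27). All 13 other genes of methylglyoxal and AGE detoxification were tested; 2 were higher and 1 lower at an unadjusted p under 0.05, and the same 3 were called by DESeq2. Leaving out Db + Ato10 replicate 3 gave 7 at that p, and leaving out any other single library gave 3; the median was −0.15, and −0.39 to −0.03 in these fits. Gsr, glutathione reductase, was at 129.9, 148 and 155.5 CPM in Db and at 281, 244 and 212 CPM in Db + Ato10, a log2 fold change of 0.76 ± 0.17 (SE, edgeR, adjusted p = 0.239; DESeq2 adjusted p = 0.00265) (left out: 0.67 to 0.87). Akr1b8, an aldo-keto reductase, was at 2.46, 7.37 and 2.50 CPM in Db and at 47.1, 31.3 and 11.3 CPM in Db + Ato10, a log2 fold change of 2.87 (left out: 2.40 to 3.59). Fn3k, the kinase that starts the removal of fructosamines from proteins, was the lower gene, at 25.2, 28.3 and 28.5 CPM in Db and at 7.71, 8.17 and 16.9 CPM in Db + Ato10, a log2 fold change of −1.33 ± 0.33 (SE, edgeR, adjusted p = 0.239; DESeq2 adjusted p = 0.0111) (left out: −1.78 to −1.12). The groups did not overlap for these 3 genes. Akr1a1, the most abundant with a mean of 2591 TPM, had a log2 fold change of −0.29 ± 0.35 (SE) (left out: −0.57 to −0.03).

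Over these 9 lists together, 42 of 109 tested genes reached an unadjusted p under 0.05, 41 of them higher, beside 16.9% and 11.2% of all tested genes, and 26 were called by DESeq2, 25 of them higher, beside 6.46% and 5.17%. Their median log2 fold change was 0.42. Tlr8 and Mmp9 are counted among the 42 and the 26, but they reached 10 counts in the Db + Ato10 libraries only. At an unadjusted p under 0.05 there were 20 with Db replicate 1 left out, beside 7.68% of all tested genes, and 28 with Db + Ato10 replicate 1 left out, beside 12.4%. In the fit that omits Db + Ato10 replicate 3, edgeR called 29 as DEGs, beside 8.18% of all tested genes (1106 of 13517). These counts describe the lists and are not tests of them, since the lists were chosen with earlier results of these data known.

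Levels of different genes were compared as TPM. In the Db group the order was Glo1 (363 ± 104 TPM, SD, n = 3), Hmgb1 (199.9 ± 13.9), Ddost (106 ± 10.2), Lgals3 (79.3 ± 28.7), S100a6 (39.6 ± 16.7), S100a4 (16.2 ± 5.57), Myd88 (14.7 ± 2.61), Tlr2 (3.52 ± 0.115), Ager (2.02 ± 1.00) and Tlr4 (1.37 ± 0.425). Among neighbours in this order the library ranges overlapped for Ddost and Lgals3, for S100a4 and Myd88, and for Ager and Tlr4. In the Db + Ato10 group S100a6 (498 ± 592 TPM) and Lgals3 (356 ± 251 TPM) came before Glo1 (348 ± 75.1 TPM), with ranges that overlapped among these 3. Hmgb1 (193 ± 24.9 TPM) and Ddost (114 ± 6.39 TPM) followed, then S100a4 (104 ± 124 TPM), Tlr2 (30.7 ± 34.5 TPM), Myd88 (28.7 ± 11.8 TPM), Ager (3.47 ± 1.595 TPM) and Tlr4 (2.87 ± 1.62 TPM). Here ranges also overlapped between Ddost and S100a4, S100a4 and Tlr2, Tlr2 and Myd88, and Ager and Tlr4. Ager and Tlr4 were the lowest of the 10 in both groups, and the Db mean of Ager lay above that of 34.1% of all genes in the table.

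The 10 genes had 19 of the 54723 transcripts in the transcript table, of which 13 were tested. None passed the DEG criteria with edgeR, as none of 30175 tested transcripts did (0%). An unadjusted p under 0.05 was reached by 6 of the 13, all higher in Db + Ato10, beside 8.19% of all tested transcripts. DESeq2 called 4 of the 13, beside 2.95%. Both transcripts of Lgals3 were among these 6, with log2 fold changes of 2.34 ± 0.64 and 2.31 ± 0.71 (SE), and they held 55.3% and 44.7% of its TPM in Db and 55.9% and 44.1% in Db + Ato10. The remaining 4 were the main transcripts of Tlr2, Myd88, S100a4 and S100a6. Of 4 Ager transcripts 1 was tested, at 0, 19.0 and 11.7 counts in Db and 52.4, 9.15 and 14.2 counts in Db + Ato10, and the others had at most 11.8 counts in any library. Glo1 and Hmgb1 each had 2 tested transcripts, with log2 fold changes between −0.22 and 0.14.

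Within Db + Ato10 the libraries differed more than within Db for most members. The SD of Tlr2 was 63.0 CPM in Db + Ato10 and 0.201 CPM in Db, and that of S100a6 was 228 and 5.68 CPM. For Tlr2, Tlr4, Myd88, Lgals3, S100a4 and S100a6 the Db + Ato10 libraries had the same order, replicate 1 above replicate 2 above replicate 3. Ddost and Hmgb1 varied little, with SDs of 3.68 and 27.6 CPM in Db + Ato10.

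**Figure D2:**
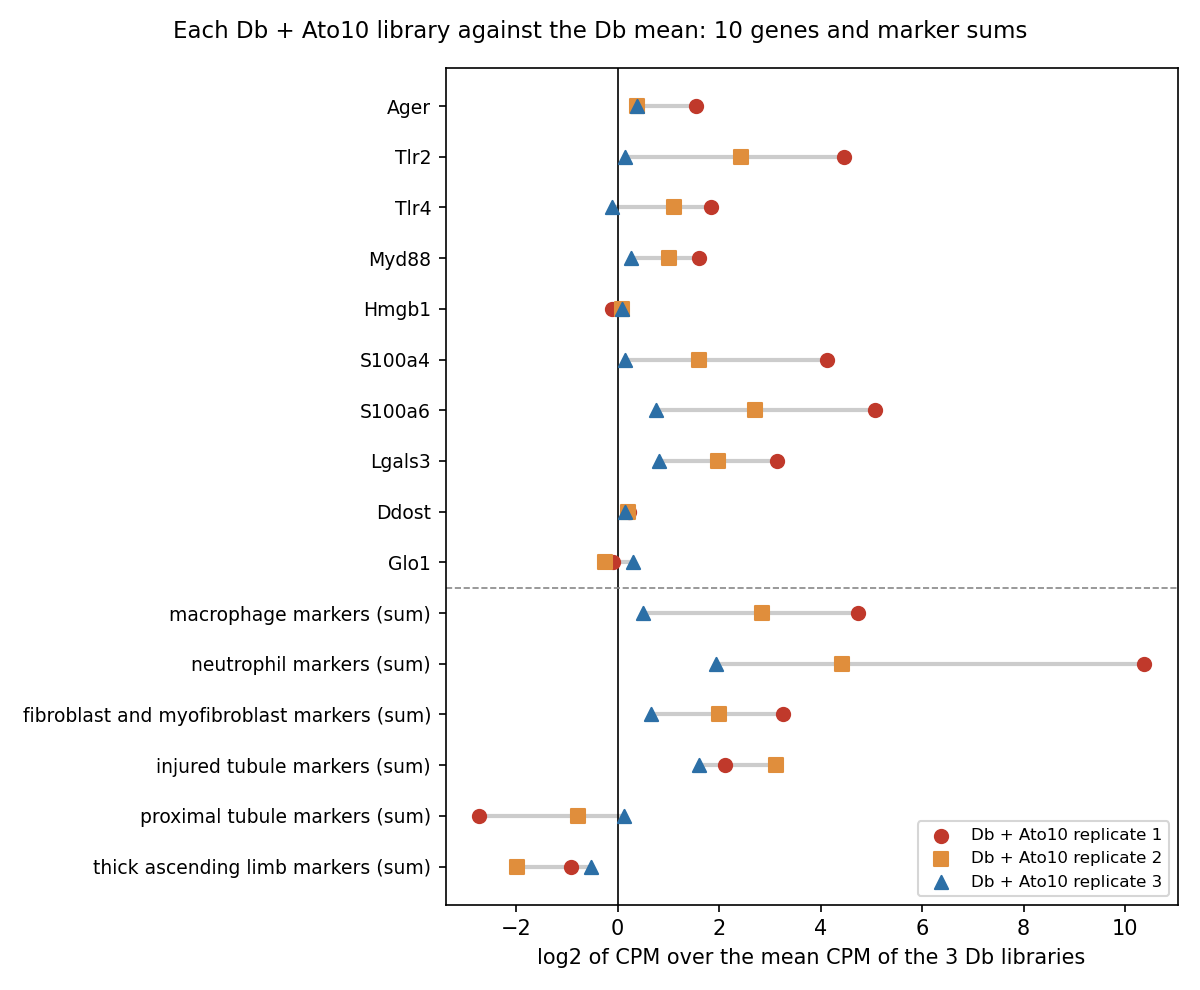
Level of the 10 genes and summed level of 6 marker lists in each Db + Ato10 library, as log2 of the CPM over the mean CPM of the 3 Db libraries. Replicate 1 lies at 4.46 for Tlr2, 5.07 for S100a6, 4.73 for the macrophage sum and −2.73 for the proximal tubule sum, while replicate 3 lies at 0.15, 0.76, 0.51 and 0.13.

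Marker genes of several cell types moved with the same libraries. All 12 macrophage markers were in the table, and all 11 that were tested were higher at an unadjusted p under 0.05. Their summed level was 154, 295 and 208 CPM in Db and 5814, 1574 and 312 CPM in Db + Ato10, with Lyz2 the most abundant. Of 10 neutrophil markers 5 were tested and all 5 were higher. Retnlg, 1 of the 5, was at 0 to 0.433 CPM in Db. It reached 10 counts in the Db + Ato10 libraries only, so it entered the test through the group where it is high. The neutrophil sum was 6.75, 10.7 and 6.22 CPM in Db and 10492, 169 and 30.2 CPM in Db + Ato10, with S100a9 the most abundant. S100a8 and S100a9 are also on the S100 list. Of 9 fibroblast and myofibroblast markers, all tested, 7 were higher, and the sum was 166, 219 and 158 CPM in Db and 1747, 726 and 287 CPM in Db + Ato10, with Dcn the most abundant, a gene also counted among the danger signals. All 8 markers of injured tubules were higher, but their sum followed another order, with 3848, 4802 and 2658 CPM in Db and 16279, 32876 and 11449 CPM in Db + Ato10; Spp1 was the most abundant. For the 6 B and plasma cell markers, led by Jchain, 3 were tested and all were higher, with sums of 3.66, 21.3 and 6.14 CPM in Db and 336, 100 and 12.3 CPM in Db + Ato10. With 1 library left out, the counts of markers at an unadjusted p under 0.05 were 8 to 11 for macrophages, 1 to 5 for neutrophils, 4 to 8 for fibroblasts, 6 to 8 for injured tubules and 0 to 3 for B and plasma cells. The part of these cell types in the levels of the 10 genes was not tested.

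Markers of tubule segments went the other way or did not follow the members. All 8 proximal tubule markers were tested and none reached an unadjusted p under 0.05, yet their sum was 12979, 9824 and 13410.0 CPM in Db and 1818, 6997 and 13196 CPM in Db + Ato10, with Slc34a1 the most abundant. Of 6 thick ascending limb markers 4 were lower, and their sum, led by Umod, ran from 8605 to 9383 CPM in Db and from 2252 to 6174 CPM in Db + Ato10. Of 4 distal convoluted tubule markers, led by Calb1, 3 were lower, with sums of 2156 to 3334 CPM in Db and 838 to 1576.5 CPM in Db + Ato10. Of 7 collecting duct markers, led by Aqp2, 5 were lower, with sums of 629 to 1001 CPM in Db and 376 to 648 CPM in Db + Ato10. Among 7 endothelial markers, led by Emcn, 1 was lower, and among 6 podocyte markers, led by Podxl, 1 was higher. The endothelial sum ran from 309.6 to 379 CPM in Db and from 162 to 407 CPM in Db + Ato10, and the podocyte sum from 384 to 586 and from 231 to 633 CPM. Leaving out 1 library gave a count of 4 for the thick ascending limb in each fit, 0 to 4 for the distal convoluted tubule, 2 to 5 for the collecting duct, 0 to 3 for endothelium, 0 to 1 for podocytes and 0 to 4 for the proximal tubule, the 4 without Db + Ato10 replicate 3.

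The remaining lists had at most 4 tested genes each. Of 8 T cell markers 7 were in the table, 4 were tested and 1 was higher, Cd3g, the most abundant, with sums of 3.10 to 7.28 CPM in Db and 3.94 to 25.0 CPM in Db + Ato10 (0 to 3 with 1 library left out). None of 3 tested dendritic cell markers of 6 listed reached an unadjusted p under 0.05, and their sum, led by Zbtb46, ran from 10.4 to 14.7 CPM over the 6 libraries. Of 9 markers of urothelium and squamous epithelium 4 were tested and 3 were higher, with sums of 3.38 to 5.64 CPM in Db and 120, 61.8 and 20.4 CPM in Db + Ato10; this count was 0 to 2 with 1 library left out, 0 without Db + Ato10 replicate 2. The median log2 fold change of the tested genes of this list was 4.26 over all libraries. It was 0.15, 0.26 and 0.66 without Db + Ato10 replicates 1, 2 and 3, and 4.17 to 4.40 without a Db library. Each median covers only the genes still tested in that fit, so these values need not cover the same genes. A gene with 10 counts in the Db + Ato10 libraries only leaves the test once 1 of them is left out. The counts with 1 library left out have the same limit. Krt5 led the list, and Krt6a and Krt13 had at most 3 counts in every library. Of 5 lung alveolar markers 3 were in the table and the sum, led by Hopx, ran from 2.16 to 14.95 CPM; Sftpb, a marker of the lung, where Ager is abundant, had at most 3 counts in every library. Of 5 adipocyte markers 4 were in the table, and Adipoq, Plin1 and Cfd had at most 3 counts in every library, while Fabp4 was present at 36.3 to 162 CPM.

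The calls depend on which libraries enter. Without Db + Ato10 replicate 3, edgeR called 5 of the 10 genes, beside 8.18% of 13517 tested genes: Tlr2 (log2 fold change 3.78, adjusted p = 0.0287), Lgals3 (2.68, adjusted p = 0.0307), S100a6 (4.33, adjusted p = 0.0331), Myd88 (1.35, adjusted p = 0.0367) and S100a4 (3.36, adjusted p just under 0.05). Tlr4 came next, with an adjusted p = 0.0535. Leaving out any of the other 5 libraries gave no call among the 10. Without Db + Ato10 replicate 1, the library with the highest levels, 4 of the 10 still reached an unadjusted p under 0.05, Tlr2, Myd88, Lgals3 and S100a6, beside 12.4% of all tested genes, and the median log2 fold change of the 10 was 0.67. Without Db replicate 1, the library with almost no Y-linked counts, 2 of the 10 did, Lgals3 and S100a6, beside 7.68%, and the median was 1.00. In each of these fits all of Tlr2, Tlr4, Myd88, Lgals3, S100a4 and S100a6 had positive log2 fold changes.

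For each of the 10 genes the tested gene with the most similar level over the 6 libraries was taken by the Pearson correlation of log2 CPM. It was Cd300c2 for Myd88 (r = 1.00), Anxa1 for S100a4 (r = 1.00), Smad1 for Lgals3 (r = 1.00), Ms4a6b for S100a6 (r = 0.999), Lamc1 for Tlr2 (r = 0.999), Plekhn1 for Tlr4 (r = 0.998), Nfyb for Ager (r = 0.994), Ccdc166 for Hmgb1 (r = 0.989), Agfg1 for Ddost (r = 0.987) and Mllt10 for Glo1 (r = 0.986). With 6 libraries such values are common: 1629 tested genes had an r over 0.9 with Myd88 and 1450 with Tlr2, against 24 with Glo1 and 65 with Ddost. Among the members, Myd88 had an r of 0.995 with S100a6 and of 0.995 with Lgals3, and Glo1 had negative values with all of Tlr2, Tlr4, Myd88, Lgals3, S100a4 and S100a6, from −0.53 to −0.26.

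Promoter sequences from RefSeq (build GRCm38.p6) were available for 9 of the 10 genes, all but Tlr4, as windows from 250 bases before to 50 bases after the start. Both strands were searched for GGNNTTTCC (NF-kB), TGANTCA (AP-1) and GGGCGG (SP1), which lie in 5.82%, 7.81% and 35.7% of all 32851 windows of this length. Only these letters were searched, so other forms of the motifs, in Tlr2 or any other window, would not be counted or marked. The NF-kB letters were found only in the window of Myd88, from base 5 after the start, and the AP-1 letters in none of the 9. The SP1 letters were found in the windows of 6 genes. Of these, Tlr2, Myd88 and Lgals3 reached an unadjusted p under 0.05 with edgeR, and Hmgb1, Glo1 and Ddost did not. Ager, S100a4 and S100a6 had no match. S100a4 and S100a6 lie in the S100 cluster of chromosome 3, with their upstream windows at chr3:90603520-90603769 and chr3:90612644-90612893 on the plus strand. The 250 bases before the start are shown for the 3 genes with an unadjusted p under 0.05 and a match, with the SP1 letters in capitals, 5′ to 3′ on the strand of the gene: Tlr2 at chr3:83841609-83841858 (minus strand), Myd88 at chr9:119340019-119340268 (minus strand) and Lgals3 at chr14:47373610-47373859 (plus strand). A match describes the letters and shows no binding.
Tlr2: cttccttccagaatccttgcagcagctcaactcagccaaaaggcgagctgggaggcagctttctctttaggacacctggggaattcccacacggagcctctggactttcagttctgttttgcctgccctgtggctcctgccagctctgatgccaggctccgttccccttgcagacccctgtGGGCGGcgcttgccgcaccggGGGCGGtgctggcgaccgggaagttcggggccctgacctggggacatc
Myd88: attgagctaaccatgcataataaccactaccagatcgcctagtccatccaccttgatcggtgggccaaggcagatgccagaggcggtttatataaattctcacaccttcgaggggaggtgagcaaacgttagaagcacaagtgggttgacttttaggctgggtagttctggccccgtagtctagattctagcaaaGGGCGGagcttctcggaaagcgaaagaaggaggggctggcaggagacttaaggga
Lgals3: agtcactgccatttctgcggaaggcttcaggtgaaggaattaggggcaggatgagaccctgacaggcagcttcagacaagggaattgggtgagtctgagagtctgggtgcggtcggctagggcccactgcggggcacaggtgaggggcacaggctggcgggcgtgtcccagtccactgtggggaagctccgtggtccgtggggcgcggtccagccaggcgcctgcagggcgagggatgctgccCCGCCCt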

How the data were processed

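Groups were taken from the treatment labels and replicate numbers from the sample titles. For genes and transcripts the authors deposited expected counts, estimates of read numbers without normalization, and 91.3% of the gene values, pooled over all genes and libraries with zeros included, were whole numbers. They also deposited FPKM (scaled to length and library size) and TPM (scaled to length and to a fixed total per library). The submitters' processing notes name HISAT, Bowtie2 2.2.5 and build mm9 without their roles, and the counting tool is not given in the sources used here. Of the deposited tables, 6 further columns of single libraries (FPKM per transcript) and 12 columns of the authors' means were not used.

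Counts were rounded to whole numbers and tested with edgeR 4.0.16 (TMM, quasi-likelihood F test, installed defaults) in R 4.3.3, on genes reaching 10 counts in 3 or more libraries, with Benjamini-Hochberg adjustment over all tested genes. DEGs needed an adjusted p under 0.05 and a fold change over 1.5. SE is the log2 fold change divided by the root of F. Log2 CPM used a prior count of 2. With 1 library left out, counts and medians of a list cover only its genes still tested in that fit. The pipeline was tested on simulated counts with the same dispersion for all genes. Libraries of a group differed there only by size and random error, so the simulation does not cover the spread among the Db + Ato10 libraries. Alternatives were DESeq2 1.42.0, limma 3.58.1 (voom, or log2 of FPKM or TPM plus 1), other scalings and filters, bias-adjusted deviances in edgeR, the replicate number as a block, no fold change criterion, and each library left out. Named genes were all 10 members; of each pathway list, genes past the DEG criteria, up to 3 with the smallest unadjusted p under 0.05 and the most abundant by TPM; and the 1 tested gene most correlated with each member. Markers were otherwise named only as the most abundant of their list or at or near 0. Tlr8 and the marker Retnlg were named because they reached 10 counts in the Db + Ato10 libraries only. The members and the lists were chosen with earlier results of these data known. Of 127 genes on the 9 pathway lists 125 were in the table. Proteins were not analysed here. Python 3.11.15 and matplotlib 3.10.9 drew the figures.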

Additional observations from a re-analysis of the deposited data

How the results depend on the processing

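Of the 10 genes, 8 kept the direction of their log2 fold change under all 16 alternatives; Hmgb1 and Glo1, whose values lie near 0, did not. Hmgb1 changed sign with limma on log2(TPM + 1) (−0.057) and without Db replicate 1 (−0.0155) or Db + Ato10 replicate 3 (−0.0012). Glo1 changed sign with no filter beyond 1 count (−0.0091), with limma on log2(TPM + 1) (−0.042) and without Db replicate 2 (−0.13), Db replicate 3 (−0.06) or Db + Ato10 replicate 3 (−0.15). Values moved up without a change of sign for Hmgb1 without Db + Ato10 replicate 1 (0.11) and for Glo1 without Db replicate 1 (0.27). With limma on log2(FPKM + 1) and log2(TPM + 1), where 1 is added before the log, values were lower for Tlr2 (2.03 and 2.05), S100a4 (1.93 and 1.86), S100a6 (2.89 and 2.81), Lgals3 (2.03 and 1.94), Myd88 (0.92 and 0.85), Tlr4 (0.59 and 0.62) and Ager (0.54 and 0.56). With limma-voom Tlr2 was at 2.39, S100a4 at 2.09, S100a6 at 2.90 and Lgals3 at 2.01. Of 160 values for single genes under these alternatives, 9 passed the DEG criteria that the edgeR value did not: Tlr2, Lgals3, S100a4 and S100a6 with DESeq2 and, with Myd88, in edgeR without Db + Ato10 replicate 3.

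The number of the 10 genes past the DEG criteria was 0 with edgeR and 4 with DESeq2, and ranged from 0 to 5 with each library left out of the edgeR fit and from 0 to 6 with each left out of DESeq2 (2, 4 and 6 without Db + Ato10 replicates 1, 2 and 3; 0, 2 and 1 without Db replicates 1, 2 and 3). Over all genes it was 0 and 884, from 0 to 1106 with each library left out of edgeR, and 313, 372, 2614, 195, 623 and 223 in the same order with DESeq2. Dropping the fold change criterion gave 0 for both. DESeq2 called 4 member transcripts.

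At an unadjusted p under 0.05 the 10 genes gave 5 calls, 6 with DESeq2, 3 with limma-voom, 3 with limma on log2(FPKM + 1), 3 with limma on log2(TPM + 1), and 2 to 6 with each library left out. All tested genes gave 2314, and 2621, 1820, 1915 and 2177 in the same order, and 1043 to 4038 with each left out. The genes of the 9 pathway lists gave 42, 43 with DESeq2, 22 with limma-voom, 22 on log2(FPKM + 1), 25 on log2(TPM + 1), and 20 to 57 with each left out. The count of members without overlap was 4, 3 in TPM, where Ddost overlaps, 4 or 5 under other tools, scalings and filters and in FPKM, and 4 to 8 with each library left out. The 8, without Db replicate 2, stand beside 39.0% of all tested genes, and 7 without Db + Ato10 replicate 3 beside 50.6%, both with 2 libraries against 3. With any other library left out the share of all tested genes was 29.3% to 31.1%. With all libraries it was 24.9% in TPM and 22.3% to 23.2% in the other settings. The median log2 fold change of the 10 ranged from 0.67 to 1.44 with each left out.

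With the replicate number as a block (replicate block), 3 of the 10 genes and 1856 genes in all reached an unadjusted p under 0.05, 28 of the list genes did, the median of the 10 was 0.98, Tlr2, S100a4, S100a6 and Lgals3 were at 2.41, 1.96, 2.79 and 2.01, and no gene or transcript was called. Deviations from the group means gave r = −0.15, 0.06 and 0.21 for same-numbered libraries and −0.37 to 0.31 for the others. With 3 libraries a group such values cannot show whether the numbers pair the libraries. The causes of these shifts were not tested.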
